A study of Mus musculus with 18 samples.

Results

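Guanylate-binding proteins (GBPs) and immunity-related GTPases (IRGs) were followed in the retinal transcriptome of 9 BALB/cJ mice. The 10 genes are Gbp1, Gbp2, Gbp3, Gbp6, Gbp7, Gbp9, Gbp10, Irgm1, Irgm2 and Igtp. They were taken by symbol from the 23420 gene symbols counted, and all 10 had enough reads to enter the model. They were chosen after results of the same mice had been seen, so their levels, fold changes and calls are a description that supports nothing by itself.

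The study asked whether TD139, a small-molecule inhibitor of galectin-3, alters the retinal response to damaging light. RNA of the retina was sequenced from 3 naïve mice, 3 light-exposed mice given vehicle and 3 light-exposed mice given TD139. All mice were wild type, of the albino BALB/cJ strain, of both sexes and 8 to 10 weeks old. The light was 15000 lux for 1 h, and retinas were collected on day 4 after it. TD139 was injected into the peritoneum daily at 15 mg/kg in DMSO from the day before light, vehicle mice received DMSO on the same schedule, and naïve mice are labelled as without light and without treatment, so that light and vehicle cannot be told apart between naïve and vehicle mice. The vehicle mice serve in both main comparisons.

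GBPs and IRGs are cytosolic GTPases of cell-autonomous immunity, the defence that a cell mounts inside its own cytoplasm. Interferon binds its receptor, JAK kinases phosphorylate STAT proteins, and STAT dimers bind gamma-activated sites (GAS), while STAT and IRF complexes bind interferon-stimulated response elements (ISRE). GBPs assemble on bacteria and on the vacuoles of parasites, open them and promote inflammasome activation. Irgm1, Irgm2 and Igtp (also called Irgm3) sit on membranes of the cell itself and hold the other IRGs in the inactive state.

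The 10 genes lie in 3 places of the mouse genome (GENCODE M21 on GRCm38). Gbp7, Gbp3, Gbp1 and Gbp2 stand in tandem on the plus strand of chromosome 3, from 142530342 at the start of Gbp7 to 142638008 at the end of Gbp2. Gbp9, Gbp10 and Gbp6 lie on the minus strand of chromosome 5, from 105077630 to 105293698. Irgm1 is at 48861968 to 48871683 on the minus strand of chromosome 11, and Igtp at 58199556 to 58207591 and Irgm2 at 58199618 to 58222782 are on its plus strand. All 10 are annotated as protein coding. The symbol Gbp1 is an older name of the gene that GENCODE lists as Gbp2b, and no separate symbol Gbp2b was counted. The annotated Irgm2 gene overlaps nearly all of Igtp through the early first exon of a longer transcript, and the GBPs of a cluster are close paralogs, so how reads were divided between neighbours is uncertain.

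Upstream sequence is shown for the 7 genes that have a RefSeq promoter window (GRCm38.p6), since it can be read against interferon-responsive motifs without using the counts. Each window runs from 250 bases before the RefSeq start to 50 after it. The windows were searched on both strands for the GAS letters TTCNNNGAA, which read the same on both strands, and the ISRE letters, GAAA followed after any 2 bases by GAAA. Capitals mark the matches and every line reads 5′ to 3′ on the gene's strand. Most lines give the 150 bases before the RefSeq start. For Gbp2 and Irgm1, whose RefSeq starts lie 61 and 263 bases downstream of the GENCODE starts, 30 bases around the match are given, and for Gbp3 the 132 bases before the GENCODE start. The RefSeq start of Irgm2 lies beyond the end of Igtp, unlike the GENCODE start.
Gbp1, chr3:142594697-142594846 (+): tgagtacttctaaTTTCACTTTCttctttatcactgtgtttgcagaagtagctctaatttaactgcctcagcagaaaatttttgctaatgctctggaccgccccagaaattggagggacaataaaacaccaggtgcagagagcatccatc
Gbp2, chr3:142620594-142620623 (+): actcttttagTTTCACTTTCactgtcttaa
Gbp3, chr3:142559894-142560025 (+): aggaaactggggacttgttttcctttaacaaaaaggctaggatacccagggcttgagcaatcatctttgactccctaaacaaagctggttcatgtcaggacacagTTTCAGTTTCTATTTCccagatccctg
Gbp7, chr3:142530186-142530335 (+): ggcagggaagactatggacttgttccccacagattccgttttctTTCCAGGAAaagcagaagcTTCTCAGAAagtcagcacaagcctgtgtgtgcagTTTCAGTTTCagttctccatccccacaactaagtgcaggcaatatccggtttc
Irgm1, chr11:48871428-48871457 (−): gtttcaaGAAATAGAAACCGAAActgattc
Irgm2, chr11:58214827-58214976 (+): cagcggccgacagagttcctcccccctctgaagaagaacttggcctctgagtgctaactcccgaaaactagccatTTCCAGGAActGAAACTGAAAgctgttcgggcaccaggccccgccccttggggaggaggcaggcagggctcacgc
Igtp, chr11:58199406-58199555 (+): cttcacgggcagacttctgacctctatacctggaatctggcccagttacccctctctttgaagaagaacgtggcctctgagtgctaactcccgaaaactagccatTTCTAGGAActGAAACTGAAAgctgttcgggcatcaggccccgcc

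ISRE letters stood in a window of all 7 genes, and in 3.43% of 32817 RefSeq promoter windows of the mouse. Gbp3 has 2 windows, and the window not shown held neither motif. GAS letters stood in the windows of Gbp7, Irgm2 and Igtp, 3 of 7 genes, and in 8.29% of all windows. Both motifs together were found in those 3 genes and in 0.451% of all windows. The ISRE matches lay close to the start, from −137 in Gbp1 to −24 in Irgm1 as the position of their first base. In Gbp3 and in Irgm1, 2 ISRE matches overlapped. In Gbp7, 2 GAS matches at −106 and −87 preceded the ISRE match at −53. Irgm2 and Igtp, neighbours on chromosome 11, carried the same arrangement, GAS letters followed after 2 bases by ISRE letters, and 77 of 80 bases around the GAS match were identical between them (96.2%). A match of letters is a description and not a measured binding site.

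**Figure D1:**
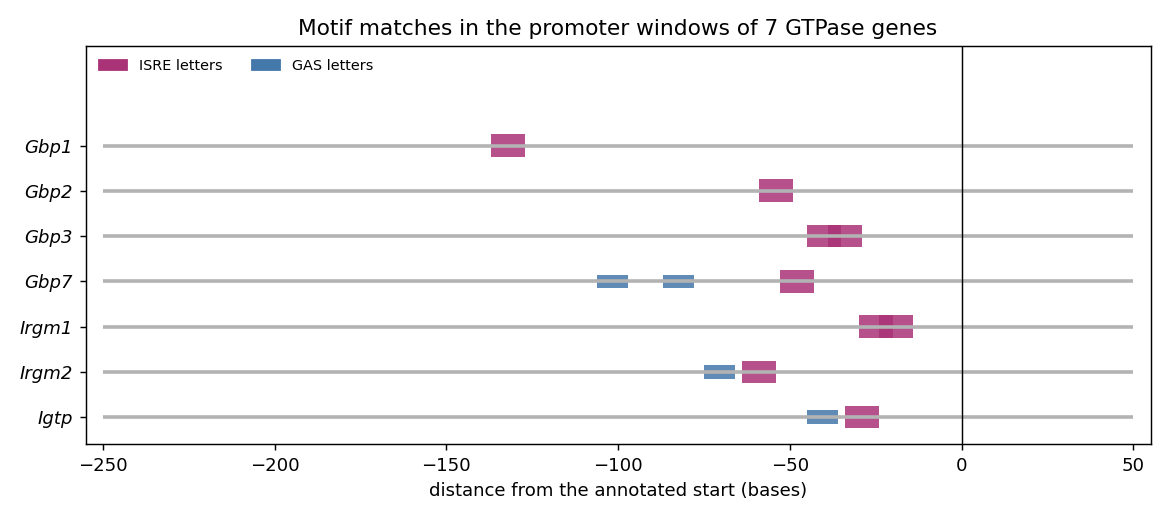
Position of GAS and ISRE letters in the promoter windows of 7 GTPase genes, with the distance from the annotated RefSeq start in bases on the x axis and a gene on each line. All 7 genes hold ISRE letters upstream of the start, and Gbp7, Irgm2 and Igtp also hold GAS letters; for Gbp3 the window with matches is drawn.

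Reads counted on genes were 26171887 to 30201517 per mouse, and 3 reads, the floor used here, stood for 0.0993 to 0.115 CPM (counts scaled to the effective library size), which covers counting error only. Rod markers summed to between 38030 and 74730 CPM in every mouse, and rods are the main photoreceptors of the labelled tissue. The 4 lens crystallin markers summed to 8899 CPM in vehicle mouse 2 and to 0.243 to 387 CPM in the other mice. Samples of a group are separate mice, and retinal RNA does not tell fewer cells of a type from less RNA per cell.

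The GBPs of chromosome 3 carried most of the GTPase reads in vehicle mice. Gbp1, a prenylated GBP, had 3.11, 3.92 and 2.86 CPM in the naïve mice, 13.7, 14.9 and 36.5 CPM in the vehicle mice and 7.49, 2.37 and 2.02 CPM in the TD139 mice. Every vehicle mouse was above every mouse of the other groups. The log2 fold change was 2.72 ± 0.58 (SE, n = 3 against 3) for vehicle against naïve and −2.45 ± 0.57 for TD139 against vehicle, the widest of the 10 genes in both comparisons. The difference between TD139 and naïve mice was 0.26 ± 0.57.

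Gbp2, which binds pathogen vacuoles and bacteria, had 1.81, 3.73 and 3.48 CPM in naïve mice, 13.4, 13.4 and 31.4 CPM in vehicle mice, and 9.56, 2.44 and 1.26 CPM in TD139 mice. The TD139 mice differed among themselves more than for any other of the 10 genes, from 258 reads in mouse 1 to 32 in mouse 3, although none reached a vehicle mouse. The log2 fold changes were 2.69 ± 0.77 and −2.13 ± 0.75, with the widest standard errors of the set. Gbp3 had 1.92, 4.03 and 3.19 CPM in naïve, 8.12, 12.8 and 36.2 CPM in vehicle and 6.01, 3.06 and 2.61 CPM in TD139 mice. Its groups did not overlap between vehicle and either other group, and its log2 fold changes were 2.64 ± 0.61 and −2.29 ± 0.60.

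Gbp7 differed less between vehicle mice and each other group than its 3 neighbours. This GBP, known for a part in assembling the phagocyte NADPH oxidase, had 1.73, 2.41 and 1.61 CPM in naïve mice, 5.65, 3.43 and 7.70 CPM in vehicle mice, and 5.78, 4.04 and 2.45 CPM in TD139 mice. Vehicle and TD139 mice overlapped, and all TD139 mice stood above all naïve mice, by a small margin (2.45 against 2.41 CPM). The log2 fold change was 1.54 ± 0.37 for vehicle against naïve, −0.45 ± 0.35 for TD139 against vehicle and 1.09 ± 0.37 for TD139 against naïve. Gbp7 also has the longest annotated transcript of the 10 genes, 5614 bases.

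The GBPs of chromosome 5 were expressed at lower levels. Gbp6 had 0.730, 1.24 and 0.550 CPM in naïve mice, 2.61, 2.61 and 5.68 CPM in vehicle mice and 2.34, 0.696 and 0.909 CPM in TD139 mice. Gbp9 had 0.499, 1.24 and 0.880 CPM, then 2.79, 3.07 and 6.22 CPM, then 1.85, 1.01 and 0.869 CPM in the same order. Gbp10, the lowest, had 0.768, 0.528 and 0.477 CPM in naïve, 1.68, 1.59 and 4.27 CPM in vehicle and 1.22, 0.661 and 0.474 CPM in TD139 mice, or 12 to 127 reads. In all 3 genes each vehicle mouse exceeded each naïve and each TD139 mouse, and the smallest gap was that of Gbp6 between TD139 mouse 1 (2.34 CPM) and the lower vehicle mice (2.61 CPM). The log2 fold changes of vehicle against naïve were close to each other, 2.11 ± 0.52, 2.20 ± 0.45 and 2.08 ± 0.49 for Gbp6, Gbp9 and Gbp10. Those of TD139 against vehicle were −1.47 ± 0.50, −1.69 ± 0.44 and −1.67 ± 0.48.

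Of the regulatory IRGs, Irgm1, found on the Golgi and on lysosomes, had 3.80, 5.43 and 4.29 CPM in naïve mice, 10.6, 11.4 and 35.3 CPM in vehicle mice and 7.23, 3.76 and 3.04 CPM in TD139 mice. Igtp, found on the endoplasmic reticulum, had 3.69, 4.15 and 2.79 CPM in naïve, 6.94, 8.62 and 21.3 CPM in vehicle and 4.38, 2.68 and 1.90 CPM in TD139 mice. For both genes the vehicle mice did not overlap with the others. Irgm2, found on the Golgi, had 0.999, 2.04 and 1.94 CPM in naïve, 2.43, 3.39 and 9.21 CPM in vehicle and 2.45, 1.25 and 1.11 CPM in TD139 mice. TD139 mouse 1 stood just above vehicle mouse 1, so these 2 groups overlapped for Irgm2. The log2 fold changes of vehicle against naïve were 2.08 ± 0.52 for Irgm1, 1.59 ± 0.52 for Irgm2 and 1.80 ± 0.44 for Igtp, and those of TD139 against vehicle were −2.03 ± 0.51, −1.64 ± 0.52 and −2.04 ± 0.45.

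**Figure D2:**
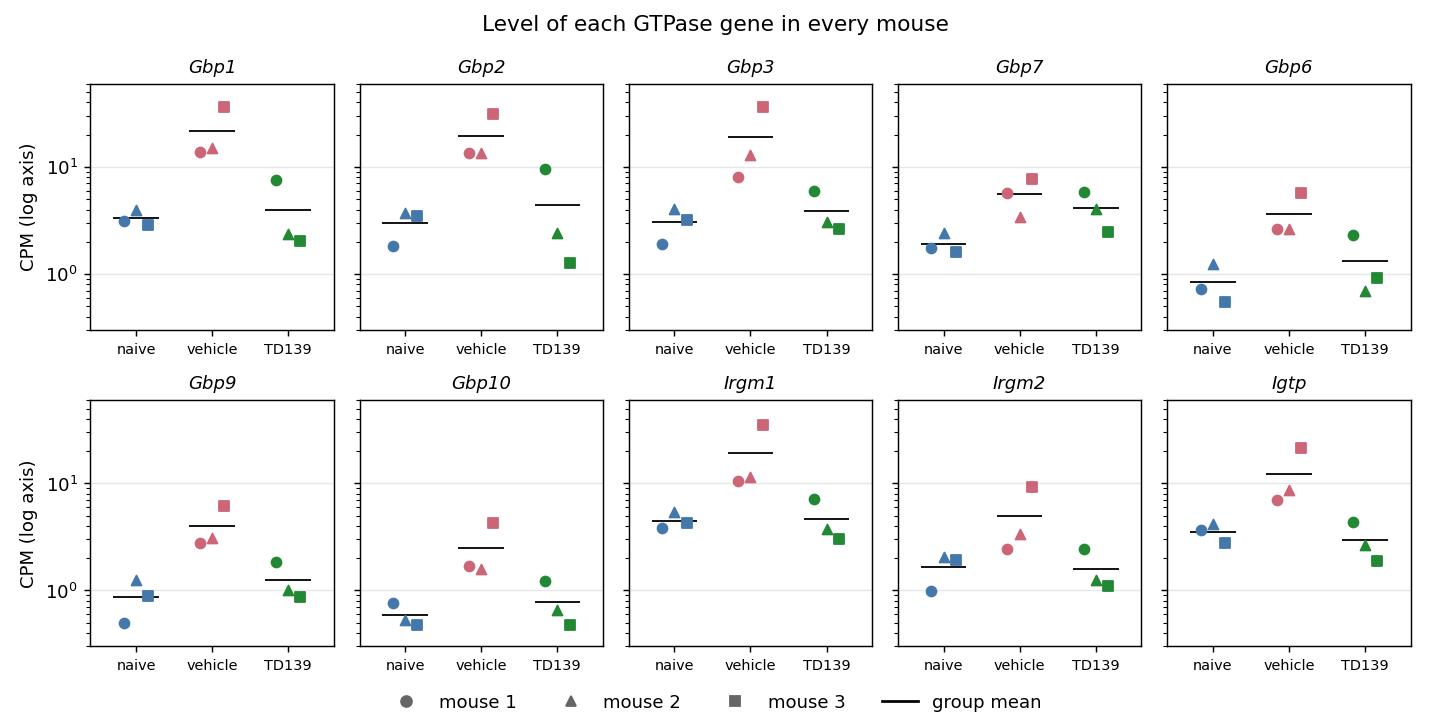
Level of each of the 10 GTPase genes in every mouse, in CPM on a log axis, for 3 naïve, 3 light-exposed vehicle and 3 light-exposed TD139 mice. Symbols give the mouse number and horizontal bars the group mean. Vehicle mouse 3 and TD139 mouse 1 are the highest of their groups in all 10 panels.

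Across the 10 genes the median log2 fold change of vehicle against naïve mice was 2.10 (1.54 to 2.72), against −0.00175 over all 15196 genes tested. A gene was called when its adjusted p-value was under 0.05 in edgeR's quasi-likelihood test over all genes. Of the 10 GTPase genes 8 were called higher, beside 4.91% of all tested genes, and 6 also had a log2 fold change of at least 2, beside 1.24%. Gbp2 and Irgm2 were not called by edgeR, while DESeq2 called 10 of 10, its share over all genes not being computed. In all 10 genes the vehicle and naïve mice did not overlap, beside 16.7% of all genes separated in that direction. Since the set was chosen on this comparison, nothing is read from these counts. They also depended on single mice. With naïve mouse 1, 2 or 3 or vehicle mouse 3 left out, 0 of 10 were called by edgeR, without vehicle mouse 1 there were 3 and without TD139 mouse 2 there were 5, although the median fold change stayed between 1.54 and 2.38 when any mouse was left out.

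For TD139 against vehicle the median was −1.86 (−2.45 to −0.45), beside −0.0164 over all genes. Of the 10 genes 8 were called lower, beside 16.2% of all genes, and 4 passed the fold change limit as well (Gbp1, Gbp3, Irgm1 and Igtp), beside 1.53%. Gbp2 and Gbp7 were not called by edgeR, while DESeq2 called 9 of 10, all but Gbp7, its share over all genes not being computed. The mice did not overlap for 8 genes, all but Gbp7 and Irgm2, beside 25.4% of all genes. Without TD139 mouse 2, 0 of 10 were called by edgeR, without TD139 mouse 3 only 1 was, and without vehicle mouse 3 there were 4, while the median stayed between −2.30 and −1.23. For TD139 against naïve the median was 0.38 (−0.24 to 1.09) and 0 of 10 were called by edgeR in either direction (beside 2.72% of genes higher and 2.38% lower), with 1 of 10 at an unadjusted p under 0.05 and 1 called by DESeq2. That gene was Gbp7, and 15.3% of all genes were separated upward as it was.

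**Figure D3:**
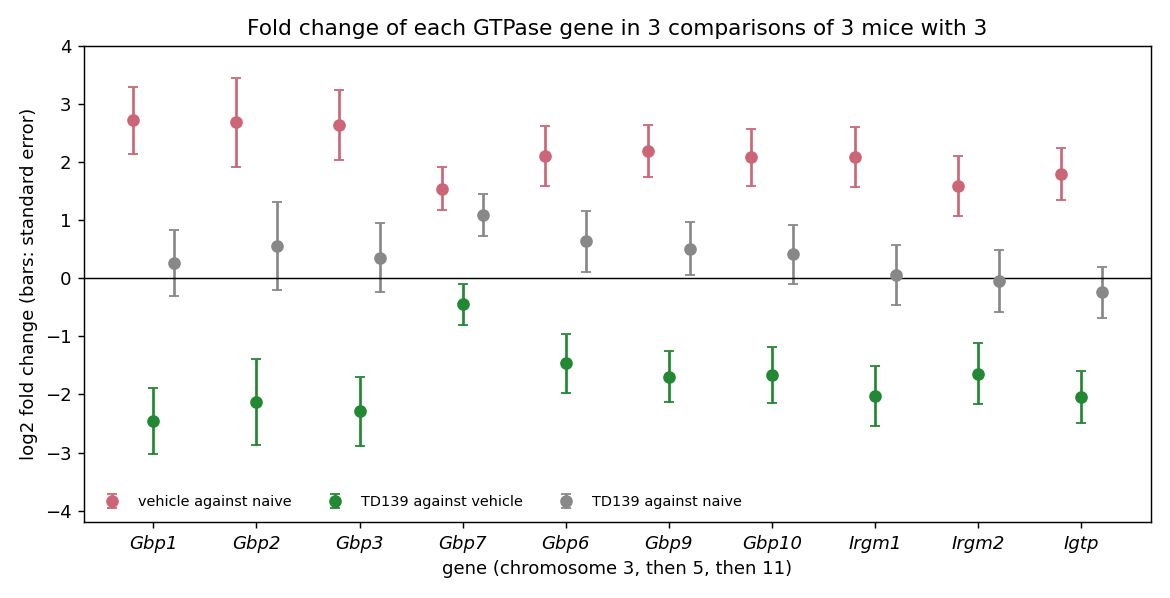
Log2 fold change of each GTPase gene with its standard error in the 3 comparisons, 3 mice against 3 in each. Vehicle against naïve lies between 1.54 and 2.72, TD139 against vehicle between −2.45 and −0.45, and TD139 against naïve between −0.24 and 1.09, where Gbp7 is the highest.

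**Figure D4:**
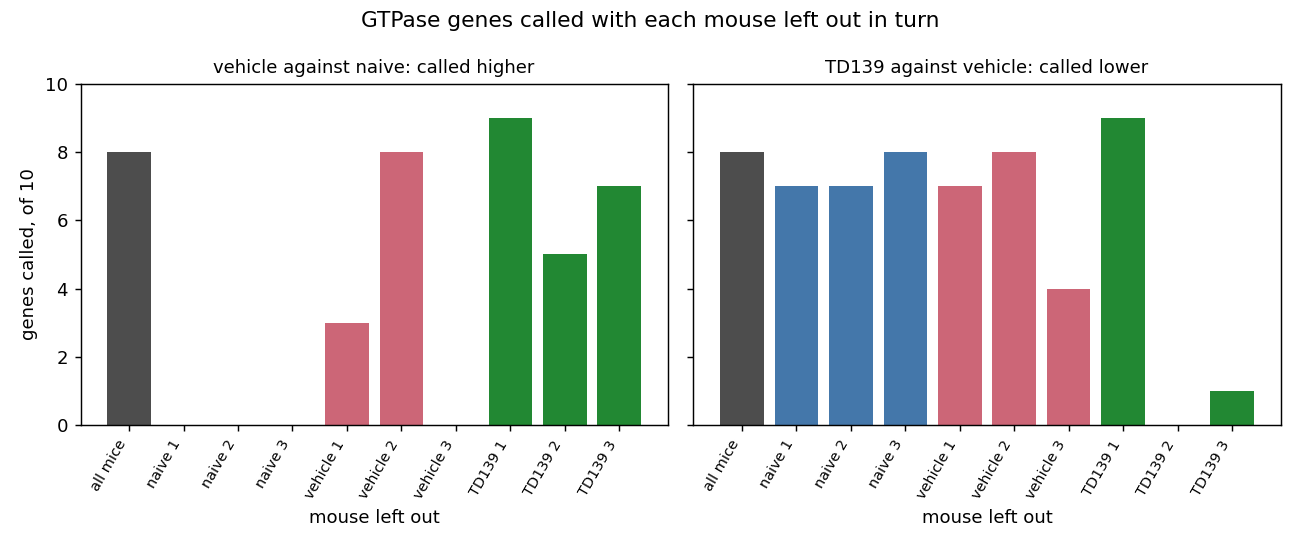
Number of the 10 GTPase genes called (adjusted p under 0.05, edgeR) with all mice and when leaving out 1 mouse at a time, for vehicle against naïve (called higher) and TD139 against vehicle (called lower). The count of 8 fell to 0 without any of the naïve mice or vehicle mouse 3 in the former, and without TD139 mouse 2 in the latter.

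Transcript length moved with fold change in the TD139 comparisons. Over 15065 tested genes with a known length, the rank correlation (Spearman's rho) of fold change with length was 0.49 for TD139 against vehicle, 0.59 for TD139 against naïve and −0.11 for vehicle against naïve, where all genes share the same libraries. With the genes split by length into 4 equal bins, the median log2 fold change of TD139 against vehicle was −0.35 in the bin of the shortest and 0.33 in that of the longest. The GTPase transcripts range from 2022 bases for Igtp to 5614 for Gbp7. After a correction for length and GC content in each mouse, TD139 against vehicle gave −2.43 for Gbp1, −1.74 for Igtp and −0.82 for Gbp7, and 8 of the 10 were called lower. For Gbp7 the TD139 against naïve difference was 0.71 after the correction. The other 9 genes differed from −2.43 to −1.66 between TD139 and vehicle mice in the corrected fit, so that Gbp7 kept the smallest difference.

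By cluster, the chromosome 3 genes had median log2 fold changes of 2.66 for vehicle against naïve, −2.21 for TD139 against vehicle and 0.45 for TD139 against naïve. Chromosome 5 gave 2.11, −1.67 and 0.51, and the chromosome 11 IRGs gave 1.80, −2.03 and −0.05. For TD139 against naïve the range was 0.26 to 1.09 on chromosome 3, 0.41 to 0.64 on chromosome 5 and −0.24 to 0.05 on chromosome 11, and for TD139 against vehicle the chromosome 3 range, −2.45 to −0.45, contained the others. These differences between clusters were not tested. As a share of all reads on the 10 genes, the IRGs took 40.4 to 44.6% in naïve mice, 29.4 to 34.0% in vehicle mice and 29.1 to 36.3% in TD139 mice. The exact (Clopper-Pearson) 95% interval was 36.9 to 44.0% in naïve mouse 2 and 32.7 to 35.2% in vehicle mouse 3. Such intervals cover the counting error of 1 library and not the spread between mice, and the shares were not tested between groups. Gbp7 took 7.31 to 9.07% in naïve, 3.97 to 8.33% in vehicle and 12 to 18.4% in TD139 mice, and the mice of TD139 did not overlap with the others. In TD139 mouse 1 its share was 12% (10.3 to 13.9%) and in naïve mouse 1 it was 9.07% (6.69 to 12%).

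Levels per kilobase used the longest annotated transcript of each gene, and another choice of transcript would change them. Igtp had the highest level in naïve mice, 1.75 ± 0.34 CPM per kb (SD, n = 3), followed by Gbp2, Irgm1, Gbp1 and Gbp3 between 1.19 and 1.14. In vehicle mice Gbp2 (7.70 ± 4.12) and Gbp1 (7.69 ± 4.55) were at the top, then Gbp3 (7.10 ± 5.61), Igtp (6.08 ± 3.89) and Irgm1 (4.98 ± 3.66). In both groups these 5 genes stood apart from the other 5, since the lowest of them, Gbp3 in naïve and Irgm1 in vehicle mice, did not overlap with the next, Irgm2. All other neighbours in the order overlapped. The lower group held Irgm2, Gbp7, Gbp6, Gbp9 and Gbp10, with Gbp10 last in all 3 groups at 0.167, 0.712 and 0.223 CPM per kb. In TD139 mice all neighbours overlapped, and Gbp7 stood above Irgm2, at 0.728 and 0.454.

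The genes varied together from mouse to mouse. Vehicle mouse 3 was the highest of its group for 10 of 10 genes, from 1.70 (Gbp7) to 3.46 times (Gbp3) the mean of the other vehicle mice, with a median of 2.58. Of 12934 genes with at least 1 CPM in every mouse 4385 were highest there, and the median ratio of the 12934 was 0.987. Gbp6, Gbp9, Gbp10 and Irgm2 fell below 1 CPM in at least 1 mouse, so they are outside that set of better expressed genes. TD139 mouse 1 was likewise the highest of its group for 10 of 10 genes, from 1.78 (Gbp7) to 5.17 times (Gbp2), with a median of 2.12, beside 4929 of the 12934 genes and a median of 0.992. Among naïve mice, mouse 2 was the highest for 9 of 10 genes, beside 2671 of the 12934.

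Markers of microglia, the resident macrophages of the retina, were raised in TD139 mouse 1 but less so in vehicle mouse 3. The 8 markers had a median ratio of 1.17 (0.696 to 1.34) in vehicle mouse 3 and of 2.47 (0.957 to 4.27) in TD139 mouse 1. By contrast Irf7 and Usp18, which respond to type I interferon, were 2.98 and 5.47 times the other mice in vehicle mouse 3 and 1.18 and 1.27 times in TD139 mouse 1. Irf9 gave 2.42 and 0.990, and Stat2 1.74 and 0.859. Irf1, an interferon-induced factor, was higher in both, 1.66 and 2.14 times, as were Irf8 (2.21 and 2.68) and Nlrc5 (1.91 and 2.86). Socs3, a feedback inhibitor, was also higher in both (3.05 and 1.94). The 6 rod markers had median ratios of 0.73 and 0.83, the 6 Müller glia markers 1.03 and 1.32 (5 of 6 above both other TD139 mice), and the 6 endothelial markers 0.937 and 1.15. The difference between the mice was not tested, and these genes were named after their values were seen.

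**Figure D5:**
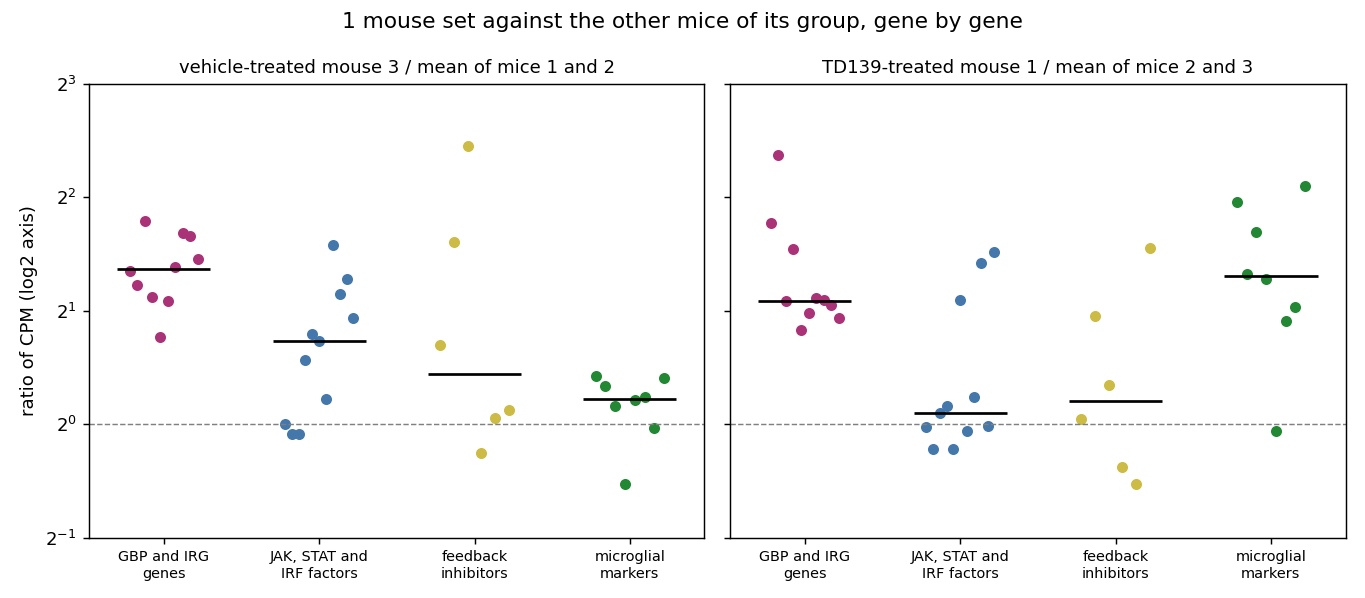
CPM in vehicle mouse 3 relative to the mean of vehicle mice 1 and 2 (left) and in TD139 mouse 1 relative to the mean of TD139 mice 2 and 3 (right), on a log2 axis, with a point for each gene of a list and a bar at the list's median. The 10 GTPase genes lie between 1.70 and 3.46 in vehicle mouse 3 and between 1.78 and 5.17 in TD139 mouse 1, with medians of 2.58 and 2.12. The microglial markers have medians of 1.17, below all 10 GTPase genes, and 2.47, within their range.

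Summed over the 10 genes, GTPase RNA was 19.1, 28.7 and 22.1 CPM in naïve mice, 67.8, 75.3 and 194 CPM in vehicle mice and 48.3, 22.0 and 16.6 CPM in TD139 mice. The 8 microglial markers summed to 46.0 to 53.1 CPM in naïve, 144 to 185 CPM in vehicle and 37.1 to 93.7 CPM in TD139 mice, with 7 of 8 called higher in vehicle against naïve and 7 of 8 lower in TD139 against vehicle, beside 4.91% and 16.2% of all genes. GTPase RNA per microglial marker RNA was 0.359, 0.612 and 0.479 in naïve mice, 0.414, 0.521 and 1.04 in vehicle mice and 0.515, 0.473 and 0.449 in TD139 mice. Without vehicle mouse 3, whose ratio was 1.04, all ratios lay between 0.359 and 0.612. The part of microglial number in the GTPase levels was not tested.

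Markers of other cells were read beside them. Of the 8 T and NK cell markers, 6 (Cd3e, Cd3g, Nkg7, Gzma, Gzmb and Ncr1) had at most 2 reads in every mouse, and the 8 summed to at most 0.806 CPM, in vehicle mouse 3. The 4 monocyte markers with a row summed to 0.293 to 0.884 CPM in naïve, 0.643 to 3.53 CPM in vehicle and 0.316 to 0.626 CPM in TD139 mice. The 6 endothelial markers summed to 166 to 249, 318 to 463 and 217 to 449 CPM, with 0 of 6 called in vehicle against naïve and 1 lower in TD139 against vehicle. The 6 Müller glia markers gave 4 called higher and then 2 lower. Over all genes 4.91% were called higher in the former comparison and 16.2% lower in the latter. Of the 6 rod markers 4 were lower in vehicle against naïve, beside 2.89% of all genes, and 3 higher in TD139 against vehicle, beside 17.2%. The 5 pigment epithelium markers summed to 99.95 to 242 CPM in naïve, 208 to 433 CPM in vehicle and 120.1 to 173 CPM in TD139 mice, with 2 called lower in TD139 against vehicle. Of the 5 bipolar cell markers 4 were higher and 1 lower in TD139 against vehicle. The part of these cells in the GTPase levels was not tested.

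The remaining GBP and IRG relatives, which are not among the 10, were tested in the same fit. Of 21 such genes with a row 10 had enough reads to test. None of the 10 was called by edgeR for vehicle against naïve (4 at an unadjusted p under 0.05, 3 called by DESeq2), and 0 for TD139 against naïve (1 at an unadjusted p under 0.05, 1 called by DESeq2). For TD139 against vehicle 2 of 10 were lower, beside 16.2% of all genes, and 1 of 10 higher, beside 17.2%. Gbp5, a GBP that promotes inflammasome assembly, had 0.307, 1.43 and 1.06 CPM in naïve, 1.93, 2.75 and 6.69 CPM in vehicle and 1.59, 1.29 and 0.948 CPM in TD139 mice. Its log2 fold change of TD139 against vehicle was −1.57 ± 0.55 with an edgeR adjusted p of 0.0495, and that of vehicle against naïve, 2.02 ± 0.57, missed the threshold (edgeR adjusted p = 0.0539) although the mice did not overlap. With the length and GC correction the values of Gbp5 were −1.56 (edgeR adjusted p = 0.0587) and 1.96 (edgeR adjusted p = 0.0336), and its fall was lost in 7 of the 9 fits that leave out a mouse. Ifi47, an effector IRG, fell by 2.30 ± 0.56 on the log2 scale from vehicle to TD139 (edgeR adjusted p = 0.0123), on at most 40 reads in a mouse. Atl2, an atlastin of the endoplasmic reticulum and a distant relative, was the gene called higher, at 0.40 ± 0.14 (edgeR adjusted p = 0.0445), and its difference was 0.15 once length and GC content had been corrected for. Relatives with too few reads were Gbp8, Tgtp1, Tgtp2, Gm4951, F830016B08Rik, 9930111J21Rik1, 9930111J21Rik2, Gm5431, Gvin1, Gm4070 and Irgc1.

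The 3 interferon genes examined were at the floor. Ifng, the main inducer of this family, had 0 reads in all 9 mice, which allows up to 0.0993 to 0.115 CPM, and Ifnb1 and Ifna4 also had too few reads to test. Of the 4 receptor chains tested, Ifnar2, a chain of the type I interferon receptor, rose in vehicle against naïve mice (1.04 ± 0.27 on the log2 scale, edgeR adjusted p = 0.0421) and fell by 1.07 ± 0.27 in TD139 against vehicle mice (edgeR adjusted p = 0.0140). Its rise was lost in 7 of the 9 fits that leave out a mouse and its fall in 3. Ifngr2, of the interferon gamma receptor, fell by 0.36 ± 0.10 in the latter (edgeR adjusted p = 0.0203).

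Of the JAK, STAT and IRF factors, Irf1, Irf8 and Nlrc5 rose in vehicle against naïve mice and fell in TD139 against vehicle mice, where Irf7 fell too. Irf1, which binds ISRE, had 6.38, 7.31 and 7.59 CPM in naïve, 14.1, 16.0 and 24.9 CPM in vehicle and 10.4, 5.04 and 4.70 CPM in TD139 mice, with log2 fold changes of 1.37 ± 0.31 (edgeR adjusted p = 0.0297) and −1.45 ± 0.31 (edgeR adjusted p = 0.00903). The fall of Irf1 was called with any of the 9 mice left out, and its rise was lost in 5 of the 9 fits.

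Nlrc5, the transactivator of MHC class I genes, showed the widest change of these factors. It had 0.461, 0.452 and 0.330 CPM in naïve, 3.72, 2.26 and 5.71 CPM in vehicle and 1.00, 0.383 and 0.316 CPM in TD139 mice. Its log2 fold changes were 3.22 ± 0.49 (edgeR adjusted p = 0.0127) and −2.77 ± 0.48 (edgeR adjusted p = 0.00568). Irf8, a factor of the microglial lineage, rose by 2.58 ± 0.46 (edgeR adjusted p = 0.0189) and fell by 1.79 ± 0.44 (edgeR adjusted p = 0.0140). Irf7, the amplifier of type I interferon, was called in the TD139 against vehicle comparison alone (−1.39 ± 0.43, edgeR adjusted p = 0.0400), with 0.81 ± 0.43 in the other. That call was lost in the corrected fit (−1.15, edgeR adjusted p = 0.0973) and in 7 of the 9 fits that leave out a mouse.

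Of 6 feedback inhibitors, Socs3, Usp18 and Ptpn6 rose in vehicle against naïve mice. Socs3, which blocks JAK kinases, had 3.27, 5.39 and 4.91 CPM in naïve, 15.8, 15.9 and 48.2 CPM in vehicle and 6.49, 3.48 and 3.20 CPM in TD139 mice, a change of 2.56 ± 0.50 (edgeR adjusted p = 0.0260) and then −2.60 ± 0.50 (edgeR adjusted p = 0.00840). Usp18, which desensitizes the type I receptor, had 0.461, 1.02 and 1.06 CPM, then 1.43, 3.29 and 12.9 CPM, then 0.704, 0.557 and 0.553 CPM in the same order. Its changes were 2.79 ± 0.73 (edgeR adjusted p = 0.0487) and −3.27 ± 0.75 (edgeR adjusted p = 0.0123), and most of its reads came from vehicle mouse 3, without which the rise was 1.47. Ptpn6 rose by 1.73 ± 0.44 and fell by 1.83 ± 0.44 (edgeR adjusted p = 0.0384 and 0.0118). The rises of Usp18 and Ptpn6 were each lost in 7 of the 9 fits that leave out a mouse. In TD139 against vehicle mice Pias1, an inhibitor of STAT signalling, rose by 0.67 ± 0.14 (edgeR adjusted p = 0.00705) and the phosphatase Ptpn2 by 0.45 ± 0.14 (edgeR adjusted p = 0.0277). In the corrected fit Pias1 stood at 0.31 and Ptpn2 was no longer called, at 0.40.

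The machinery that GBPs use was examined as well. Of 6 genes for prenylation and CaaX processing, which anchor some GBPs to membranes, 0 were called for vehicle against naïve by edgeR (2 at an unadjusted p under 0.05), and for TD139 against vehicle Pggt1b rose by 1.09 ± 0.30 (edgeR adjusted p = 0.0185) and Icmt by 0.66 ± 0.17 (edgeR adjusted p = 0.0171). With the correction Pggt1b was at 0.59 and not called. Of 11 genes of ATG8 conjugation, the autophagy system that guides IRGs and GBPs to vacuoles, Gabarap rose by 0.50 ± 0.12 (edgeR adjusted p = 0.0295) and fell by 0.73 ± 0.12 (edgeR adjusted p = 0.00557), and Map1lc3a fell by 0.63 ± 0.10 in TD139 against vehicle (edgeR adjusted p = 0.00547). In the corrected fit Gabarap stood at 0.34 and −0.29, both still called, and Map1lc3a at −0.03.

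Of 8 inflammasome genes downstream of GBPs, 5 had enough reads to test. Casp1, the inflammasome protease, had 2, 5 and 1 reads in naïve, 56, 44 and 135 reads in vehicle and 16, 3 and 1 reads in TD139 mice. It rose by 4.69 ± 0.86 on the log2 scale (edgeR adjusted p = 0.0193) and fell by 3.43 ± 0.76 (edgeR adjusted p = 0.00977), where the naïve level rests on few reads. In TD139 against vehicle mice Gsdmd, the pore-forming substrate, fell by 1.23 ± 0.39 (edgeR adjusted p = 0.0320), Pycard, the adaptor, by 2.12 ± 0.74 (edgeR adjusted p = 0.0483) and Il18 by 0.60 ± 0.20 (edgeR adjusted p = 0.0378). In the corrected fit these 3 were no longer called, with Pycard at −2.20, Gsdmd at −0.79 and Il18 at −0.23. In TD139 against naïve mice 0 genes of the 6 lists were called by edgeR, with 5 at an unadjusted p under 0.05. DESeq2 called 2 of them, both of ATG8 conjugation, and limma voom with sample quality weights called 2 genes higher. Over the 6 lists, 10 of 43 tested genes were called higher in vehicle against naïve, where 4.91% of all genes were, and 16 of 43 lower in TD139 against vehicle mice, where 16.2% of all genes were. These counts also depended on single mice: the former was 1, 0 and 1 without naïve mouse 1, 2 and 3, 6 without vehicle mouse 1 and 2 without vehicle mouse 3, and the latter 8, 5 and 7 without vehicle mouse 3, TD139 mouse 2 and TD139 mouse 3. Of the other calls named from these lists and the relatives, those lost in at least 5 of the 9 fits were the rise of Gabarap (5), the falls of Pycard (6) and Il18 (6) and, in TD139 against vehicle, the higher values of Atl2 (6) and Ptpn2 (5).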

How the data were processed

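Retinal poly(A) RNA of 9 mice was sequenced, each library on 2 flow cell runs. For each run the authors deposited counts, the whole number of reads that BaseSpace RNA Express placed on each gene symbol, without scaling, on the build mm10 per the submitters' processing notes. How reads shared by paralogs were treated and whether strand was used in counting are not given in the sources used here. Reads outside genes were 21.3 to 22.8% of a mouse's reads in TD139 mice and 16.5 to 19.9% in naïve and vehicle mice. Ambiguous reads were 0.303 to 0.363% in TD139 mice and 0.374 to 0.471% in the others, so TD139 libraries stood apart in both. Both kinds of reads were left out, and the part of this difference in the comparisons was not tested.

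Counts were added over the runs of a mouse, which was the replicate. Counts were fitted with edgeR 4.0.16 in R 4.3.3 (filterByExpr, TMM, robust quasi-likelihood F test, 3 groups in 1 fit), which kept 15196 genes, and p-values were adjusted over these genes by Benjamini and Hochberg. The standard error is the log2 fold change divided by the square root of F. Alternatives were DESeq2 1.42.0, limma 3.58.1 with voom and sample quality weights, other normalizations and filters, only the groups compared, the replicate number as a block, single runs, a spline offset for length and GC content with 4 degrees of freedom, and each mouse left out. The fit was tested on simulated data. Of 23420 symbols, 21777 matched GENCODE M21 by symbol and 1259 by an older symbol. Promoter windows are those of RefSeq for 7 of the 10 genes. Gbp6, Gbp9 and Gbp10 were not analysed there, and protein sequences were not used here.

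The GTPase genes and all lists were chosen with earlier results of these data known. Of the relatives and of each pathway list, every called gene is named where at most 5 were called, with Irf1 and Ifng always named, and 1 item that meets this rule is not reported here. Ratios between mice of a group were named after their values were seen.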

Additional observations from a re-analysis of the deposited data

How the results depend on the processing

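Of the values that sum up a comparison, 112 stayed within 1.5 times the reported count, or within 0.617 (the mean SD of log2 CPM within groups) of the reported median, under the settings that keep all mice, and 20 did not. The GTPase genes called higher in vehicle against naïve mice were 8, and 4 without a filter on low counts and 5 in flow cell run 2. Those called lower in TD139 against vehicle mice were 8, and 4 with only the 2 groups compared. For TD139 against naïve mice DESeq2 called 1 higher, and under limma voom the median log2 fold change was −0.37 in place of 0.38. Of the relatives, 0 were called higher in vehicle against naïve mice by edgeR, 3 by DESeq2, 1 in flow cell run 1 and 1 with the length and GC correction. In TD139 against vehicle mice 2 relatives were called lower, and 1 without a filter, 1 with at least 10 counts in 6 mice, 1 by limma voom, 1 with the length and GC correction, 0 in flow cell run 1 and 0 in flow cell run 2. In TD139 against naïve mice DESeq2 called 1 relative higher and limma voom 3, and limma voom called 2 genes of the pathway lists higher. Causes were not tested.

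With 1 mouse left out, the GTPase genes called ranged from 0 to 9 for vehicle against naïve, 0 to 9 for TD139 against vehicle and 0 to 0 for TD139 against naïve. Their median log2 fold changes ranged from 1.54 to 2.38, from −2.30 to −1.23 and from −0.24 to 0.63. Relatives called ranged from 0 to 1, 0 to 3 and 0 to 2, and pathway genes from 0 to 10, 5 to 16 and 0 to 1. No called value changed sign.

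Mice with equal replicate numbers were compared across groups. The correlation of their deviations from the group means ran from −0.26 to 0.28 over 9 pairs, and 2 were above 0.1. For unequal numbers it ran from −0.28 to 0.23. Whether mice with equal numbers were handled together was not tested. With the number as a block, 1 GTPase gene was called higher in vehicle against naïve mice, 4 were called lower in TD139 against vehicle mice, and 1 relative was called lower in the latter.

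The limits are 3 mice a group, where an exact permutation test of a single gene cannot go below p = 0.1, low counts for Gbp10, Gbp9 and Gbp6, and reads shared by paralogs.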

Other observations

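The 2 flow cell runs of a library differed for these genes in more pairs than the intervals allow for. In 76 of 90 pairs of gene and mouse, the exact 95% binomial interval of the share of the gene's reads found in run 1 covered the share of all reads of the library in run 1, and in 14 pairs it did not. The same count was not made over all genes, so the excess cannot be called particular to these genes. Relatives and pathway genes were also searched for motifs. Of 12 relatives with a promoter window, 5 held ISRE letters, 4 held GAS letters and 4 held both. Of 9 JAK, STAT and IRF factors with a window, 2 held ISRE letters and 3 GAS letters. Of 7 interferon ligands and receptors, 1 held ISRE and 3 GAS letters, and of 4 feedback inhibitors 1 held each. ISRE letters were in 0 of 8 ATG8 conjugation genes, 0 of 7 inflammasome genes and 0 of 4 prenylation genes with a window, and GAS letters in 2, 0 and 0 of them.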
